A study of Mus musculus with 4 samples.

Results

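The potassium, calcium and pacemaker channel genes of the mouse ureter were read here in 4 arrays of 2 colours, each a comparison of a mutant and a control. The genes were taken by name: every gene on the array named Kcn followed by a subfamily letter and a number (potassium channels and their subunits), every Cacn gene (voltage-gated calcium channels and genes named as their subunits), every Hcn gene (pacemaker channels) and Ano1 (a calcium-activated chloride channel). The rule took 123 of the 24133 named genes, 188 of 39429 probes, and used no measured value, but it was chosen with earlier results of these data known. The set held 92 potassium channel genes, 26 calcium channel genes, 4 Hcn genes and Ano1.

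Ureters were dissected from NMRI mouse embryos at stage E18.5. The mutant, called cKO here, carried Pax2-cre/+ and the genotype Trp63(dN-flox/dN-flox), in which the ΔN form of p63, a transcription factor of basal epithelial cells, can be deleted. Control ureters carried Trp63(dN-flox/?), with 1 allele not stated and no Cre listed, so effects of the deletion and of the Cre allele cannot be told apart. Each of the 4 arrays carried 1 cKO RNA and 1 control RNA, with the cKO RNA in the red channel on arrays 1 and 3 and in the green channel on arrays 2 and 4. Array 2 held a male pair and the other 3 arrays held female pairs. Pax2 is expressed in the nephric duct and the epithelia derived from it, and both genotypes carry a floxed Trp63 allele. Whether an RNA came from 1 embryo or from a pool is not stated. The p-values speak only of the spread between these pairs that is left after a dye term, which fits the colour of the cKO channel. Each SD printed beside a p-value is of all 4 ratios, with any dye effect left in, so it is not the spread behind that p-value.

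Potassium channels set the resting potential of a cell and end its action potentials, and in epithelia they provide the electrical driving force for ion transport. In the smooth muscle of the ureter, L-type calcium channels carry the calcium that triggers contraction, and potassium channels limit each contraction. Pacemaker channels of the Hcn family and calcium-activated chloride channels are known from cells that start rhythmic contractions, in the heart and in smooth muscle organs. In a whole ureter RNA the epithelial, muscular, nervous and interstitial sources of a channel are mixed, and fewer cells of a type and less RNA per cell cannot be told apart.

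Levels below are normalized log2 intensities of 1 probe per gene, and a difference is a log2 ratio of cKO over control within an array. Trp63 itself had levels of 11.05, 11.85, 11.73 and 11.54 in the cKO RNAs of arrays 1 to 4, against 13.92, 13.54, 13.76 and 13.67 in the control RNAs, a ratio of -2.18 ± 0.50 (SD, n = 4 pairs), 4.52-fold lower in cKO (limma adjusted p = 0.00207). Of 10 markers of basal urothelium, a list that includes Trp63 itself, 9 fell and 1 rose. Their summed intensity was 19720 to 24140 in cKO and 126400 to 143500 in control RNAs. None of the 12 smooth muscle markers passed the threshold, with a median ratio of 0.18 and sums of 815700 to 897900 in cKO and 667100 to 825100 in control, so muscle RNA was present in each sample. No marker of either list was below background in all RNAs. Array 1 stood apart in dim signals: 82.6% of its cKO spots and 90.0% of its control spots were well above background, against 72.4% to 76.5% in the channels of the other 3 arrays.

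Of the 123 channel genes, 89 had a signal well above background on all 4 arrays in at least 1 genotype and were tested. In cKO ureters 11 were higher and 3 were lower at an adjusted p of 0.05, and 75 did not pass, beside 8.56% of all tested genes that passed in either direction. The higher share, 12.4%, stood beside a background of 2.93% of all 18027 tested genes, and the lower share, 3.37%, beside 5.63%. Most ratios were small: 59 of the 89 lay within 0.2 of 0 on the log2 scale, 9 lay over 0.5 from 0, and the median SD over the 4 arrays was 0.15. The median ratio of the channel genes was 0.09, against 0.00 over all tested genes, and it was 0.16, 0.05, 0.04 and 0.09 on arrays 1 to 4. Ratios above 0 on all 4 arrays were found for 29 channel genes (32.6%) and for 14.3% of all tested genes. Ratios below 0 on all 4 arrays were found for 8 channel genes (8.99%) and for 16.3% of all tested genes. The cKO and control levels did not overlap for 5 channel genes with cKO above (3.68% of all tested genes) and for 3 with cKO below (6.2% of all tested genes). When 1 array was left out, the count of higher channel genes was 5 (array 1 left out), 10 (array 2), 6 (array 3) and 6 (array 4), and 8 of the 14 calls held without each array in turn: Kcnn4, Kcne3 and Kcnv1 among the lower, and Kcnq1, Kcnq3, Kcnt2, Kcna3 and Kcnk5 among the higher.

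**Figure D1:**
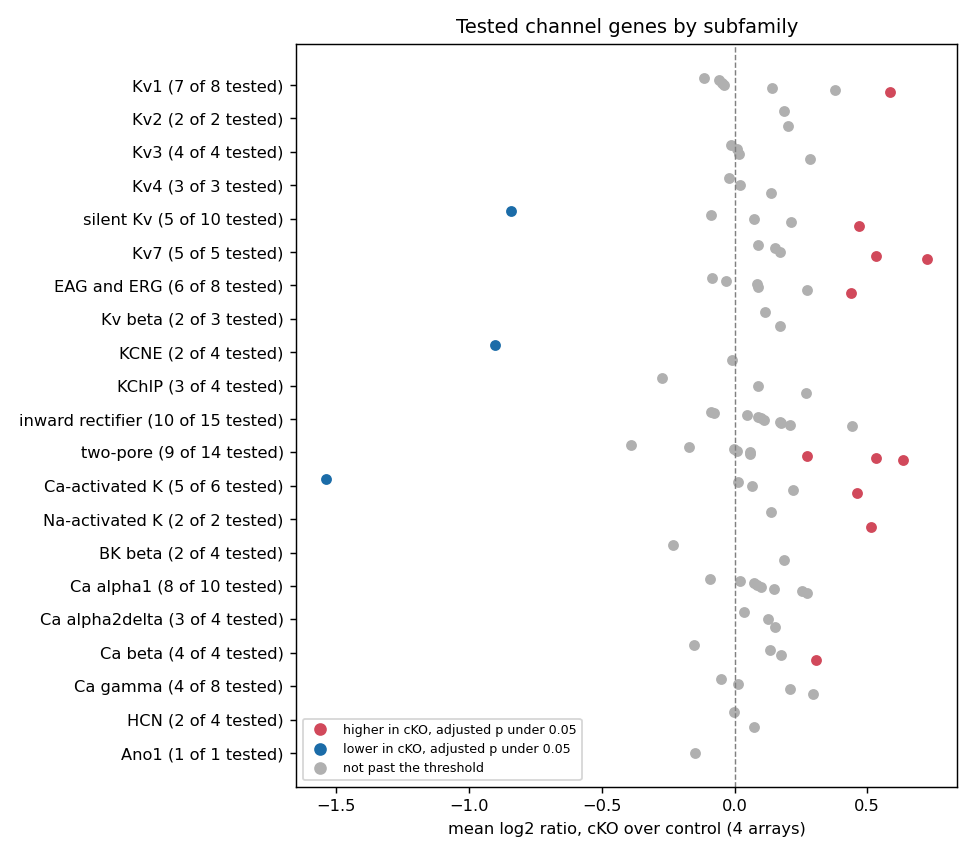
Mean log2 ratio of cKO over control (x axis) of each of the 89 tested channel genes, 1 point per gene, in rows by subfamily with the number tested of the number on the array. Red points are higher in cKO, blue points are lower in cKO (adjusted p under 0.05) and grey points did not pass; the 3 blue points lie in 3 different rows and most points lie within 0.2 of 0.

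The 3 channel genes that fell are a calcium-activated potassium channel and a pair of regulatory subunits. Kcnn4 encodes the intermediate-conductance calcium-activated potassium channel of epithelia and blood cells. Its level was 7.11, 7.75, 7.70 and 7.61 in cKO ureters, against 8.51, 9.26, 9.29 and 9.26 in control ureters. Every cKO level was below every control level, and array 1 was the dimmest in both genotypes. The ratio was -1.54 ± 0.11 (SD, n = 4), 2.9-fold lower in cKO (adjusted p = 0.000547, 95% interval -1.69 to -1.38). Kcnn4 passed the threshold under all 14 alternatives, with an adjusted p of at most 0.00698. Its probe is placed by the deposited files at chr7:25169184-25169782 on the plus strand of mm9.

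Kcne3 encodes a single-span subunit that assembles with Kcnq1 and keeps that channel open in intestinal epithelium. It had levels of 9.55, 9.89, 9.83 and 9.98 in cKO, against 10.61, 10.60, 10.83 and 10.83 in control, again without overlap. The ratio was -0.90 ± 0.16 (SD, n = 4), 1.87-fold lower in cKO (adjusted p = 0.00142). A second Kcne3 probe gave -0.97 ± 0.16, with the main probe at chr7:107333062-107333121 and the other at chr7:107332867-107332926 (mm9, plus strand). Kcne4, the other tested member of that subunit family, had a ratio of -0.01 ± 0.11 (adjusted p = 0.959).

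Kcnv1 encodes a silent voltage-gated subunit, which forms no channel by itself and modifies partners when it assembles with them. It had levels of 6.88, 6.48, 6.55 and 6.51 in cKO, against 7.32, 7.58, 7.42 and 7.46 in control. The groups did not overlap, but the cKO signal was well above background on only 1 of 4 arrays, so its size rests on dim spots. The ratio was -0.84 ± 0.28 (SD, n = 4; adjusted p = 0.00604), 1.79-fold lower, and it was -2.51 from Agilent's processed signals (adjusted p = 0.0141).

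**Figure D2:**
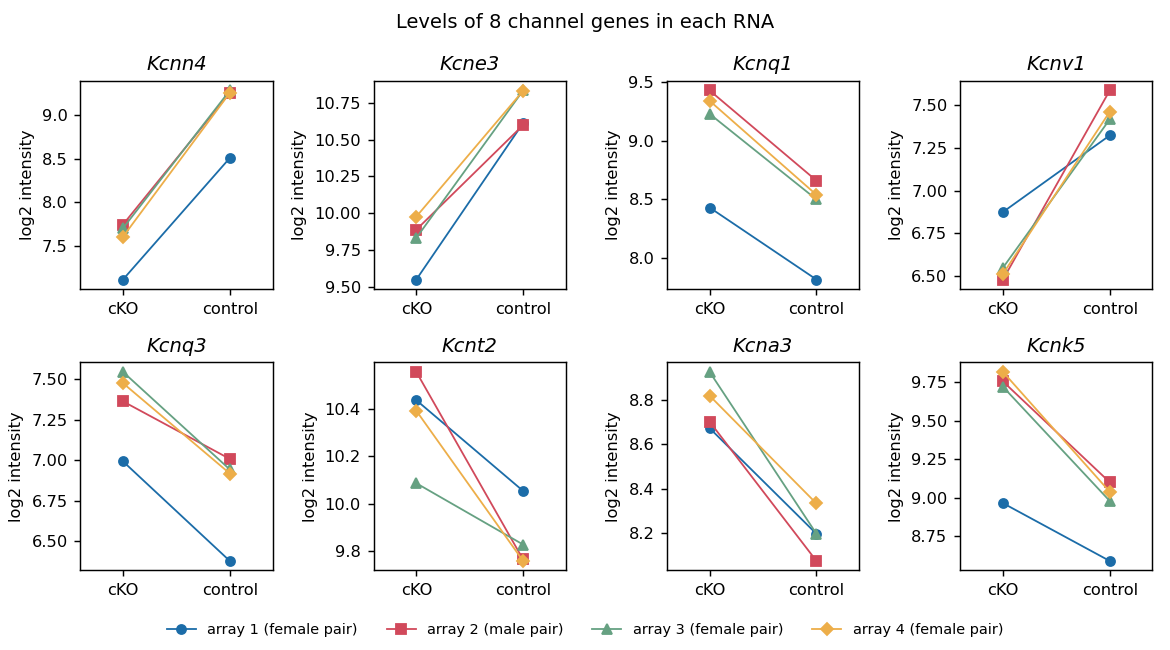
Log2 intensity (y axis, own range per panel) of the 8 channel genes with the lowest p-values, in cKO on the left and control on the right of each panel, with 1 line per array joining the pair that shared it. The lines of Kcnn4, Kcne3 and Kcnv1 run upward to control and those of the other 5 genes run downward, and array 1 is dimmer than the other arrays in the panels of Kcnn4, Kcnq1, Kcnq3 and Kcnk5.

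The promoters of 3 of the called genes are printed because p63 is a transcription factor and these are genes of epithelial cells: Kcnn4 and Kcne3, which fell, and Kcnk5, which was higher. Sequences are RefSeq's, 250 bases before the annotated start on GRCm38.p6, 5′ to 3′ on the gene's strand. Capitals mark matches of CNNG followed after 6 bases by another CNNG, a loose form of the paired elements that p53 family proteins are known to bind. The pattern reads the same on both strands, and neighbouring matches may overlap. The windows are Kcnn4 at chr7:24370013-24370262 (plus strand), Kcne3 with starts at chr7:100176420-100176669 and chr7:100178433-100178682 (plus strand), and Kcnk5 at chr14:20181783-20182032 (minus strand).
Kcnn4: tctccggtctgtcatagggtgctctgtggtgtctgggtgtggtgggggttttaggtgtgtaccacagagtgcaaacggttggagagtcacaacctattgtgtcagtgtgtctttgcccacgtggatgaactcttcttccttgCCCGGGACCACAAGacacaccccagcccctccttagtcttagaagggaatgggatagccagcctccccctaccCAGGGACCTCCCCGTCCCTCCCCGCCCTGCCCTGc
Kcne3, first start: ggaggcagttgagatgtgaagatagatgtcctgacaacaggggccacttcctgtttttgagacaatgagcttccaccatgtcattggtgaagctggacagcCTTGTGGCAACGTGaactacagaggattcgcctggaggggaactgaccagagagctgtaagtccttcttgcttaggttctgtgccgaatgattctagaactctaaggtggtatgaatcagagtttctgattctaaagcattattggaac
Kcne3, second start: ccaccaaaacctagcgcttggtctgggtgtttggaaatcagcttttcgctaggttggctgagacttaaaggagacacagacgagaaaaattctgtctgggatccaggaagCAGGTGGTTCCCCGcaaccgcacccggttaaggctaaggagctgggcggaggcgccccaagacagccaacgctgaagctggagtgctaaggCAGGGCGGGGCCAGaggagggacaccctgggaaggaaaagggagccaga
Kcnk5: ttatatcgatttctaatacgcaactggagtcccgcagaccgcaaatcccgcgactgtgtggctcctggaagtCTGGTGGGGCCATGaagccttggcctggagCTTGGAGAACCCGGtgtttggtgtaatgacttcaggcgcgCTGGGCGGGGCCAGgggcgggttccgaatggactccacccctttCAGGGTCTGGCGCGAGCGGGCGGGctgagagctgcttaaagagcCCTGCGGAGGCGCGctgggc
The Kcnn4 window held 4 matches, the Kcne3 windows 1 and 2, and the Kcnk5 window 7, the most of any called gene's window. Kcnq1, an epithelial channel gene that was higher with a lower p-value than Kcnk5, had no promoter sequence available here. The windows of Kcnt2 and Kcna3, also higher and with lower p-values than Kcnk5, held 2 each and are not printed. Such matches are common: 63.5% of all 32851 promoter windows held at least 1, as did 93 of 124 windows of channel genes (75%) and 13 of 13 windows of the 8 called genes that had one. A stricter form of 1 copy of the p53 family element, not of the pair, was in 7.13% of all windows. It was in 5 of the 124 channel windows (4.03%) and in 0 of the 13. The pair in that stricter form was not searched for. CATG followed after 6 bases by another CATG was in 0.49% of all windows, in 2 of the 124 (1.61%) and in 0 of the 13. A match is a run of letters and not a binding site, and no match says only that these letters are not in this window.

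Among the voltage-gated potassium channels of the Kcnq family, 2 of the 5 tested genes rose and none fell. Kcnq1, the epithelial and cardiac channel that Kcne3 and its relatives regulate, had levels of 8.43, 9.43, 9.23 and 9.34 in cKO, against 7.82, 8.66, 8.50 and 8.54 in control. The levels of array 1 were low in both genotypes, which made the groups overlap, while every pair was higher in cKO. Its ratio was 0.73 ± 0.08 (SD, n = 4), 1.65-fold higher (adjusted p = 0.00221), and a second, overlapping probe gave 0.76 ± 0.11. The probes lie at chr7:150612887-150612946 and chr7:150612896-150612955 of mm9. Kcnq1 and Kcne3 thus changed in opposite directions in the same RNAs.

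Kcnq3, a subunit of the M-type channel of neurons, had levels of 6.99, 7.36, 7.54 and 7.48 in cKO, against 6.38, 7.01, 6.94 and 6.92 in control. All 4 pairs were higher in cKO, with overlap between the groups through array 1. The ratio was 0.53 ± 0.12 (SD, n = 4), 1.45-fold higher (adjusted p = 0.00784). This probe was dim, and the ratio was 1.10 from Agilent's processed signals and 0.93 in the deposited table. Kcnq5 had a ratio of 0.09 ± 0.07 (adjusted p = 0.372).

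Of the Kcnk genes, whose tandem-pore (K2P) channels carry the leak current that holds the resting potential, 9 of 14 were tested and 3 rose. Kcnk5 encodes the pH-sensitive leak channel TASK-2, known from kidney epithelium. It had levels of 8.97, 9.75, 9.72 and 9.82 in cKO, against 8.59, 9.10, 8.98 and 9.04 in control. Array 1 was lowest in both genotypes, and each pair was higher in cKO. The ratio was 0.64 ± 0.18 (SD, n = 4), 1.55-fold higher (adjusted p = 0.0103).

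Kcnk2, the stretch- and lipid-gated channel TREK-1 of smooth muscle and neurons, had levels of 9.67, 10.28, 10.10 and 10.02 in cKO, against 9.14, 9.48, 9.73 and 9.58 in control. Only the cKO RNA of array 1 lay within the control range. The ratio was 0.53 ± 0.19 (SD, n = 4), 1.45-fold higher (adjusted p = 0.0192), and the adjusted p was 0.0884 without array 1 and 0.0553 without array 3. Kcnk3 (TASK-1) had ratios of 0.55, 0.06, 0.38 and 0.11, a mean of 0.27 ± 0.23 (adjusted p = 0.0487), and without each array in turn its adjusted p was 0.201, 0.126, 0.0917 and 0.185. It also missed the threshold in limma with no dye term (0.125), with Agilent's processed signals (0.0603) and with the deposited table (0.0856). Of 14 alternatives, 8 ended the Kcnk3 call.

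Kcnk1 (TWIK-1), one of the brightest probes of the set that did not pass, had ratios of -0.80, -0.19, -0.24 and -0.32. Its mean of -0.39 ± 0.28 missed the threshold (adjusted p = 0.0886) and passed it without array 3 (0.0327). Array 1 gave the lowest of its 4 ratios. The Kcnk1 level was 13.49 to 14.19 in cKO and 14.15 to 14.38 in control.

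Kcna3, best known from T lymphocytes, had levels of 8.67, 8.70, 8.93 and 8.82 in cKO, against 8.19, 8.07, 8.19 and 8.33 in control. Every cKO level exceeded every control level. The ratio was 0.58 ± 0.12 (SD, n = 4), 1.5-fold higher (adjusted p = 0.00868), while none of the other 6 tested Kcna genes passed. Of 9 leukocyte markers, with Cd3e as the T cell gene among them, 0 passed, with a median ratio of -0.05 and each above background. The cell source of the Kcna3 signal was not tested. Kcnh5, an ether-à-go-go channel of the nervous system, was at 8.74 to 9.08 in cKO and at 8.40 to 8.67 in control, without overlap. Its ratio was 0.44 ± 0.17 (adjusted p = 0.032), and with array 1, 3 or 4 left out the adjusted p was 0.0884, 0.12 or 0.0994.

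Kcnv2, a silent subunit known from photoreceptors, had ratios of 0.26, 0.34, 0.51 and 0.77. Its mean was 0.47 ± 0.23 (SD, n = 4; adjusted p = 0.0424), and with array 1, 3 or 4 left out its adjusted p was 0.0918, 0.143 or 0.118. On the deposited table its ratio was 0.78 and its adjusted p 0.0961. Its fellow silent subunit Kcnv1 fell, so the 5 tested silent subunits gave 1 gene higher and 1 lower. In 4 of the families in which no gene passed, the gene with the lowest p was Kcnc2 (0.28 ± 0.12, adjusted p = 0.0623), Kcnip3 (0.27 ± 0.18, 0.132), Kcnab1 (0.11 ± 0.17, 0.243) and Kcnd2. Kcnd2, a rapidly inactivating A-type channel, had the widest spread of the set, with ratios of 1.09, 0.18, -1.04 and 0.32. Its mean was 0.14 ± 0.88 (adjusted p = 0.863), and it was 0.67 without array 3 (adjusted p = 0.0187).

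**Figure D3:**
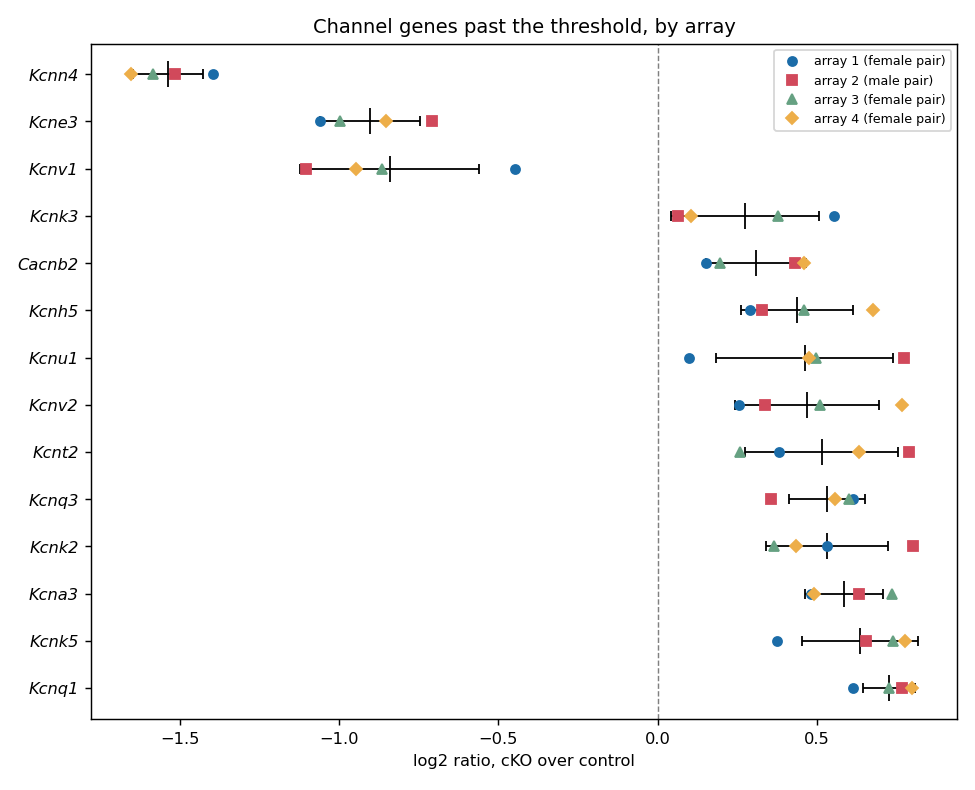
Log2 ratio of cKO over control on each array (symbols) for the 14 channel genes past the threshold, with the mean (long tick) and SD (bar) over the 4 arrays, cKO over control on the x axis. All 4 symbols of every gene lie on 1 side of 0, and the symbols of Kcnk3 and Kcnu1 reach down to 0.06 and 0.10.

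Ion-activated potassium channels moved unequally. Kcnt2, a sodium-activated potassium channel, had levels of 10.44, 10.55, 10.09 and 10.39 in cKO, against 10.05, 9.76, 9.83 and 9.76 in control. The groups did not overlap, and the cKO RNA of array 3 was the closest to the control range. The ratio was 0.52 ± 0.24 (SD, n = 4), 1.43-fold higher (adjusted p = 0.00836), and a second probe gave 0.51 ± 0.18. Kcnu1, which encodes a channel of sperm, had ratios of 0.10, 0.77, 0.50 and 0.47. Its mean was 0.46 ± 0.28 (adjusted p = 0.0438), and no set of 3 arrays kept it past the threshold (adjusted p 0.0508 to 0.125). Kcnn2 and Kcnn3, small-conductance relatives of Kcnn4, had ratios of 0.22 ± 0.18 and 0.01 ± 0.10 (adjusted p = 0.173 and 0.916).

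Of the 15 Kcnj inward rectifiers, which pass potassium more easily into the cell than out, 10 were tested and none passed, with a median ratio of 0.11. The lowest p was that of Kcnj12, with 0.44 ± 0.31 (adjusted p = 0.112). At an unadjusted p of 0.05, limma counted 30 channel genes higher and 6 lower of the 89, against 10.9% and 12.8% of all tested genes.

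The Cacn genes, voltage-gated calcium channels and genes named as their subunits, gave 1 call among 19 tested genes. Cacnb2, an intracellular subunit that brings L-type pores to the membrane, had levels of 12.19, 11.99, 11.93 and 11.95 in cKO, against 12.03, 11.56, 11.73 and 11.49 in control. All 4 pairs were higher in cKO, and the control RNA of array 1 lay above 3 of the cKO RNAs. The ratio was 0.31 ± 0.16 (SD, n = 4), 1.24-fold higher (adjusted p = 0.0245), and leaving out arrays 1 to 4 in turn gave adjusted p-values of 0.0999, 0.0821, 0.104 and 0.11. The other detected Cacnb2 probes gave 0.35 ± 0.15 and 0.10 ± 0.09. Cacnb1, Cacnb3 and Cacnb4, the other subunits of that class, had ratios of 0.13, 0.18 and -0.15, none past the threshold.

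None of the 8 tested pore-forming Cacna1 genes passed. Cacna1d, an L-type pore that opens at more negative potentials than Cacna1c, was closest, with ratios of 0.48, 0.23, 0.21 and 0.17. Its mean was 0.27 ± 0.14 (adjusted p = 0.0687), and its cKO levels of 11.18 to 11.36 lay above the control levels of 10.86 to 11.15. Cacng7 missed the threshold as narrowly (0.29 ± 0.24, adjusted p = 0.0594). For the subunits that aid surface delivery, Cacna2d3 had 0.15 ± 0.06 (adjusted p = 0.162) and Cacna2d1 had 0.13 ± 0.06 (adjusted p = 0.226). A second detected Cacna2d1 probe gave -0.20 ± 0.48, with -0.86 on array 4.

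The channels best known for contraction and its rhythm did not pass. Cacna1c, the L-type pore of smooth muscle, had levels of 12.59, 12.33, 12.32 and 12.43 in cKO, against 12.30, 12.13, 12.45 and 12.44 in control. The groups overlapped, and arrays 1 and 2 lay above 0 while arrays 3 and 4 did not. Its ratio was 0.09 ± 0.19 (SD, n = 4; adjusted p = 0.634), with a 95% interval of -0.13 to 0.31. The T-type pores Cacna1g and Cacna1h had ratios of 0.26 ± 0.23 (adjusted p = 0.202, interval 0.01 to 0.50) and 0.15 ± 0.14 (adjusted p = 0.291, interval -0.03 to 0.33).

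Of the pacemaker channels, Hcn2 had levels of 13.57, 13.70, 13.74 and 13.65 in cKO, against 13.50, 13.68, 13.75 and 13.73 in control. Its 8 levels interleaved, and its ratios were 0.08, 0.02, -0.02 and -0.08, with a 95% interval of -0.14 to 0.13 (adjusted p = 0.988). Hcn3 had a ratio of 0.07 ± 0.12 (adjusted p = 0.509, interval -0.07 to 0.22). Hcn4, the main pacemaker channel of the heart, was not well above background in any of the 8 RNAs.

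Ano1, whose product carries chloride current in interstitial pacemaker cells and secretory epithelia, had levels of 15.75, 16.08, 15.91 and 16.00 in cKO, against 15.86, 16.11, 16.20 and 16.17 in control. All 4 pairs were lower in cKO, with ratios of -0.11, -0.03, -0.29 and -0.16, and the groups overlapped. The mean was -0.15 ± 0.11 (adjusted p = 0.219, interval -0.30 to 0.00), and no Ano1 spot was saturated.

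For the channels that calm smooth muscle, Kcnma1, the pore of the large-conductance calcium-activated channel, had levels of 13.20, 12.95, 13.11 and 12.98 in cKO, against 12.99, 12.78, 13.13 and 13.09 in control. Its ratio was 0.06 ± 0.15 (adjusted p = 0.681, interval -0.12 to 0.25), and its 4 probes lay between 0.06 and 0.11. Kcnmb1, the smooth muscle subunit that raises the calcium sensitivity of that channel, had levels of 11.82, 11.78, 11.96 and 11.81 in cKO, against 11.66, 11.72, 11.68 and 11.56 in control. The groups did not overlap, yet the ratio of 0.19 ± 0.10 missed the threshold (adjusted p = 0.144, interval 0.03 to 0.34). Kcnmb4, the neuronal relative of Kcnmb1, had a ratio of -0.23 ± 0.24 (adjusted p = 0.128). Kcnj8, the ATP-sensitive pore of vascular and visceral muscle, had 0.11 ± 0.13 (adjusted p = 0.417, interval -0.06 to 0.29).

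**Figure D4:**
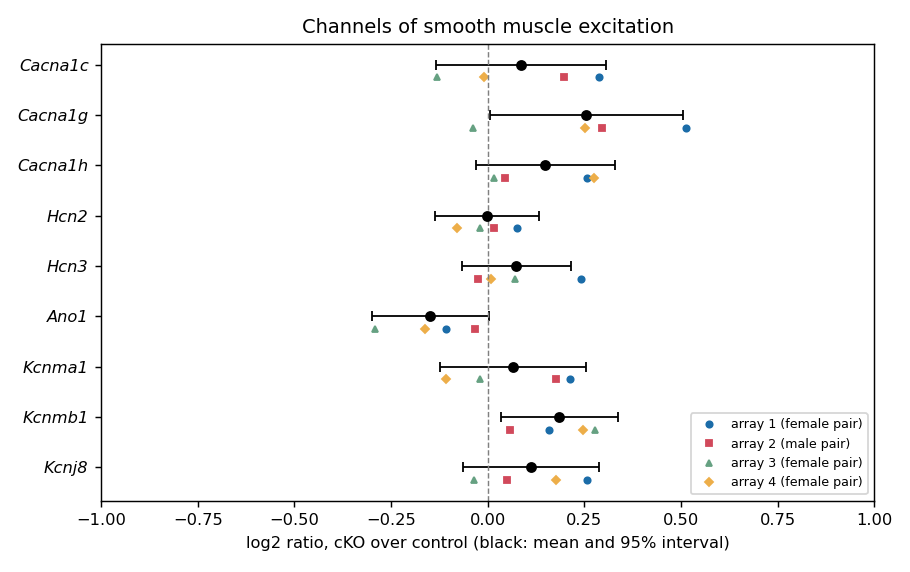
Log2 ratio of cKO over control (x axis) for 9 tested channels of smooth muscle excitation, with the ratio of each array as a coloured symbol and the mean with its 95% interval in black. No gene passed the threshold, and the intervals of Cacna1g and Kcnmb1 lie above 0 while the other 7 include it.

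The 34 channel genes that were not tested made up 27.6% of the set. For 16 of them no RNA gave a signal well above background, and 18 were above it in some RNAs. They include Kcnj1, the apical potassium channel of the kidney tubule, the neuronal calcium channels Cacna1b and Cacna1e, and the cardiac subunits Kcne1 and Kcne2. Where the text gives no other place, the probes of the called genes lie in mm9 at chr15:44937912-44937971 (Kcnv1, minus strand), chr15:65826897-65826956 (Kcnq3, minus), chr14:20959684-20959743 (Kcnk5, minus), chr1:191032758-191032817 (Kcnk2, minus), chr1:142506210-142506269 (Kcnt2, plus), chr3:106840925-106840984 (Kcna3, plus), chr2:14907912-14907971 (Cacnb2, plus), chr12:75998266-75998325 (Kcnh5, minus), chr19:27411522-27411581 (Kcnv2, plus), chr8:27048346-27048405 (Kcnu1, plus) and chr5:30927090-30927149 (Kcnk3, plus). Which exon or UTR each probe meets was not analysed here. The brightest probe stood for each gene, and no channel gene had detected probes that differed by over 1 on the log2 scale.

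A list of 93 partner genes of these channels, chosen with earlier results of these data known, was read beside them. Of these, 81 were tested, 8 rose and 3 fell, beside 2.93% higher and 5.63% lower of all tested genes. Their median ratio was 0.05, and the choice of the list limits what its shares can show. Of the 17 tested subunits, inhibitors and associated channels 4 rose and 1 fell. Lrrc26 and Lrrc55, both leucine-rich subunits of the large-conductance channel formed by Kcnma1, moved in opposite directions. Lrrc26 had ratios of 0.81, 1.52, 1.56 and 1.38, a mean of 1.32 ± 0.35, 2.49-fold higher (adjusted p = 0.00535). Lrrc55 had levels of 7.89 to 8.29 in cKO and 8.93 to 9.44 in control, a ratio of -1.13 ± 0.17, 2.2-fold lower (adjusted p = 0.00213). Dpp6, an auxiliary subunit of Kcnd channels, was 1.46-fold higher, with a ratio of 0.55 ± 0.04 (adjusted p = 0.00477). Nalcn, a sodium leak channel, was 1.4-fold higher (0.49 ± 0.06, adjusted p = 0.00611).

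Of the 15 tested sodium channel genes 2 rose and 1 fell. Scnn1b and Scnn1a encode subunits of the epithelial sodium channel. Scnn1b had levels of 11.83, 12.77, 12.68 and 12.34 in cKO, against 10.75, 11.33, 11.04 and 11.07 in control. Scnn1a had levels of 9.21, 10.42, 10.22 and 9.90 in cKO, against 8.38, 8.99, 8.81 and 8.87 in control. Neither gene's groups overlapped, and Scnn1b was 2.56-fold higher (1.36 ± 0.24, adjusted p = 0.00255) and Scnn1a 2.26-fold higher (1.17 ± 0.29, adjusted p = 0.006). In the opposite direction, Scn4b, an auxiliary sodium channel subunit, was 1.52-fold lower (-0.60 ± 0.12, adjusted p = 0.00711).

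Trpv4, a calcium-permeable channel known as a stretch sensor of the urothelium, had levels of 10.44, 10.86, 10.76 and 10.66 in cKO, against 11.64, 12.12, 12.12 and 12.19 in control. The groups did not overlap. The ratio was -1.34 ± 0.14 (SD, n = 4), 2.52-fold lower (adjusted p = 0.000907). Trpv6, a calcium uptake channel of epithelia, had the opposite sign, with 0.87 ± 0.29, 1.83-fold higher (adjusted p = 0.0129). Of the 20 tested genes of calcium stores and store-operated entry 1 rose, Atp2a3, a calcium pump of the endoplasmic reticulum (0.36 ± 0.18, adjusted p = 0.028), and it did not pass without array 1 (0.113), array 2 (0.0794) or array 4 (0.12). None of the 16 tested chloride channel genes passed.

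**Figure D5:**
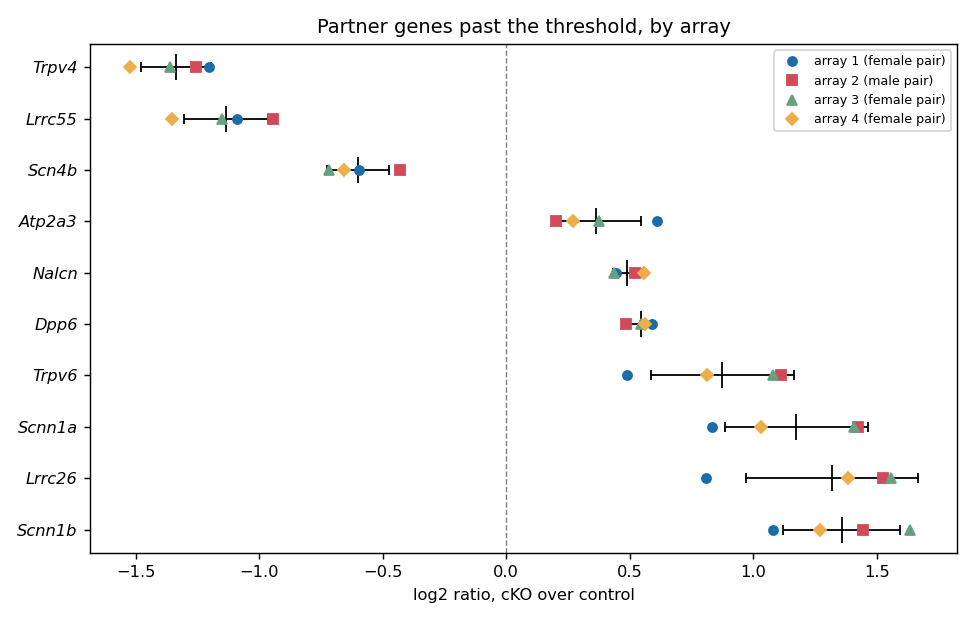
Log2 ratio of cKO over control (x axis) on each array (symbols) for 10 partner genes past the threshold, with the mean (long tick) and SD (bar) over the 4 arrays. Trpv4, Lrrc55 and Scn4b lie below 0 on every array and the other 7 genes lie above 0 on every array.

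Markers of several cell types moved beside the channel genes. Of 15 neuron markers 3 rose (Phox2a, Syt1 and Ret), and their summed intensity was 30230 to 46690 in cKO and 27360 to 35380 in control. The median ratio of these markers was 0.70, 0.21, 0.25 and -0.05 on arrays 1 to 4. Of 6 markers of pacemaker and interstitial cells 1 rose, Gja1 (0.71 ± 0.15, adjusted p = 0.00679), with sums of 47140 to 55760 in cKO and 41740 to 44880 in control. Of 10 superficial urothelium markers 1 fell, with sums of 425600 to 715300 in cKO and 733300 to 828500 in control and a median ratio of -0.46. Of 10 hepatocyte markers 5 rose, with sums of 30080 to 240400 in cKO and 12580 to 45270 in control. All markers of these lists were above background in some RNA. Of 12 kidney tubule and glomerulus markers 7 were tested and 1 rose, Cubn (2.27 ± 0.52, adjusted p = 0.00309), with a median ratio of 0.02. Their sums, taken over all 12 genes including those not tested, were 28520 to 33100 in cKO and 23300 to 25480 in control, without overlap. The ratios of the 7 tested genes ran from -0.55 to 2.27, with 4 above 0. Of 8 adrenal markers 2 rose, Hsd3b1 and Cyp11b1, with a median ratio of 0.32 and sums of 2974 to 4287 in cKO and 2429 to 2873 in control. Of 6 pericyte markers 1 fell, Rgs5 (-0.90 ± 0.23, adjusted p = 0.00696), with sums of 45250 to 52670 in cKO and 48460 to 61280 in control. Of 9 glia markers 1 fell, Erbb3 (-0.52 ± 0.18, adjusted p = 0.0247), with sums of 32080 to 45050 in cKO and 32540 to 43150 in control. No marker of endothelium or smooth muscle passed. Mean ratios lay above 0 for 8 of 8 and 11 of 12 of them, with medians of 0.19 and 0.18. Mean ratios above 0 were found for 71.9% of tested channel genes, 50.7% of all tested genes and 3 of 9 leukocyte markers. The smooth muscle medians on arrays 1 to 4 were 0.28, 0.06, 0.06 and 0.18. The part of all these marker shifts in the channel ratios was not tested.

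Sex could be compared only as the male pair of array 2 against the 3 female pairs. No channel gene passed the threshold for that difference (limma, 0 of 89, beside 0% of all tested genes), and 4 of 89 had an unadjusted p under 0.05, beside 4.7% of all tested genes. With 1 male pair, sex and array 2 cannot be told apart.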

How the data were processed

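RNA of 4 cKO and 4 control ureter samples was read on 4 arrays of 1 slide. The authors deposited spot intensity values per channel and a log10 ratio of red over green (not used in tests), per the file headers, made with Agilent's Feature Extraction software (version 10.7.3.1). Their deposited value table holds log2 ratios, which matched the turned scanner ratios with slopes of 0.99 to 1.00. It holds 7718 to 12487 values of exactly 0 per array, and the sources used here do not say how these arose.

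Mean signals were corrected with normexp (offset 50, which draws the ratios of dim probes towards 0), normalized by loess within arrays and turned to cKO over control. Flagged spots (3.04% to 3.58%) were left out, 0 were saturated, and the 4 spots of a probe were averaged. Levels came from quantile scaling of the average signal. A gene was tested if its brightest probe was well above background on all 4 arrays in at least 1 genotype. Ratios were fitted with limma 3.58.1 in R 4.3.3 with a dye term (2 residual degrees of freedom, prior 3.27) and adjusted by Benjamini-Hochberg over 18027 genes. The fit was tested on simulated data. The number of arrays limits the precision. Probes took their gene from the accession (28328 probes), else from a symbol (3400) or an older symbol (242). The name given by the file served for 1532 probes, and 5927 stayed unnamed. Probe places are in mm9.

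The channel genes, partner lists and marker lists were chosen with earlier results of these data known. Genes named with values were the smooth muscle excitation set, all channel genes past the threshold, the lowest p of each subfamily without one, the brightest and the 3 nearest ones that did not pass, and up to 4 partner genes per list; other genes named were chosen after their values were seen. A few genes that the rule names are not reported here. The replicate numbers pair the 2 RNAs of each array, so the ratio within an array is the pairing. Alternatives were Agilent's processed signals, the deposited table, other scaling, filters, probe rules and dye terms, single channels with and without the array as a block, and each array left out.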

Additional observations from a re-analysis of the deposited data

How the results depend on the processing

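The count of channel genes higher in cKO, 11, was 7 with the deposited table, 23 with the channels fitted separately and the array as a replicate block, and 5 to 10 without 1 array. The count of lower channel genes, 3, was 6 with that replicate block and 3 to 4 without 1 array. Without the block, 0 channel genes were higher and 1, Kcnn4, was lower (limma; 10 and 3 at an unadjusted p of 0.05). The median ratio of the channel genes, 0.09, was 0.14 from Agilent's processed signals and 0.07 to 0.12 without 1 array. Over all tested genes, 529 higher and 1015 lower became 255 and 583 with the deposited table, 1475 and 1890 with the block, 37 and 193 without it, and 275 to 359 and 559 to 761 without 1 array. The partner genes, 8 higher and 3 lower, numbered 13 higher with no dye term, 20 and 9 with the block, 0 and 1 without it (6 and 3 unadjusted), and 6 to 8 higher and 3 lower without 1 array. The causes were not tested. Scaling between arrays, the filters on dim probes, the mean of all probes and flagged spots moved no count of channel genes by over 1.5 times.

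Of the values of single named genes under an alternative, 552 kept direction and side of the threshold, 55 no longer passed, 13 newly passed and 9 changed sign, none of these past the threshold. Hcn2 was 0.0134 from processed signals, 0.00385 in the deposited table and 0.0432 as the mean of all probes, where Cacna2d1 was -0.0341. Without 1 array, Hcn2 lay between -0.026 and 0.0219, Cacna1c between -0.0179 and 0.191, Kcnma1 between -0.00591 and 0.136, and Kcnd2 between -0.395 and 0.671. Each fit without an array has fewer samples. For the dim probes of Kcnv1, Kcnq3 and Kcnv2 the size of the ratio moved by over 1.5 times with Agilent's processed signals, and for Kcnq3 and Kcnv2 also with the deposited table; the cause was not tested.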
